A study of Mus musculus with 4 samples.

Results

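The ERK pathway feedback genes were taken as 10 genes fixed by symbol, Dusp1, Dusp4, Dusp5, Dusp6, Spry1, Spry2, Spry4, Spred1, Spred2 and Etv5, and each matched 1 row among the 52459 genes of the count table. Intestinal stem cells (ISCs) of wild-type (WT) C57/Bl6 mice were compared at 2 ages, young ISCs of 2 months (ISC_2mth) and old ISCs of 22 months (ISC_22mth). Each age had 2 full-length (FL) RNA-seq libraries, and each library came from a pool of 5 female mice, so that differences between single animals within a pool cannot be seen. ISCs were sorted from dissociated small intestinal crypts by the SM6 surface marker strategy, in which CD31- and CD45- cells with CD24med, CD166+, CD44high, GRP78low, EPHB2high and EPCAM+ were kept, and no animal was treated or carried a transgene.

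Extracellular signal-regulated kinase (ERK) is the last kinase of a chain that runs from growth factor receptors through RAS, RAF and MEK. Active ERK switches on genes whose products shut the same chain down, so that the RNA of these feedback genes is commonly read as a trace of recent ERK activity. The dual-specificity phosphatases (DUSPs) remove phosphate from ERK and its relatives, Sprouty (SPRY) and SPRED proteins hold back signalling between receptor and RAF, and ETV5 is an ETS family transcription factor made in response to receptor signalling. In the crypt, EGF family ligands from neighbouring cells drive the pathway in ISCs and sustain their division. The question addressed here was whether this feedback RNA differed between young and old ISCs.

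None of the 9 genes tested passed FDR under 0.05 between the ages by edgeR's quasi-likelihood test, and Spry4, with too few reads for the filter, was not tested. The values nearest to a difference were a higher level of Spry2 in old ISCs (8.24 ± 1.48 against 4.42 ± 0.0786 CPM, mean ± SD, n = 2 pools each, FDR = 0.073) and a lower level of Dusp5 (0.230 ± 0.209 against 1.15 ± 0.224 CPM, FDR = 0.23). Dusp5 passed the filter through the young pools alone, so that a lower old value was favoured for it by the filter itself. CPM are counts per 1000000 reads after TMM scaling, which sets the libraries to a common level for most genes, and FDR is the p adjusted over all genes tested. Among all 13692 genes tested, 2.26% had FDR under 0.05, 1.63% with higher and 0.628% with lower values in old ISCs. An unadjusted p under 0.05 was reached by Spry2 and Dusp5, that is by 2 of the 9 members tested, beside 16.9% of all genes tested (9.26% higher and 7.65% lower). The same 2 members had an unadjusted p under 0.05 by limma voom, DESeq2 and edgeR's likelihood ratio test, and Spry2 alone did by limma voom with sample quality weights. These tools gave such a p to 16.3%, 10.2%, 18.1% and 16.1% of all genes, in the order named. Of these tools, only the likelihood ratio test gave a member FDR under 0.05, which was Spry2 (FDR = 0.033, with 4.46% of all genes called, against 2.34% by limma voom with weights, 2.22% by limma voom and 1.44% by DESeq2).

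Library totals were between 11662654 and 15975698 counts, of which mitochondrially encoded genes took 62.6% and 65.7% at 2 months and 73.8% and 72.9% at 22 months, so that 3852178 to 4593004 counts were left for all other genes. A count of 3, taken as the floor, was worth between 0.198 and 0.245 CPM. The sorted cells carried the stem cell markers in all libraries, the 10 listed (Lgr5, Ascl2, Olfm4 and others) summing to between 2756 and 2968 CPM, and none of them had FDR under 0.05. An unadjusted p under 0.05 was seen in 2 with higher and 4 with lower values in old ISCs by the quasi-likelihood test. Among all genes tested, 9.26% and 7.65% had such a p. The lowest FDR was that of Axin2 (log2 fold change -0.46, FDR = 0.051). Enterocyte markers summed to 387 and 519 CPM at 2 months and to 879 and 802 CPM at 22 months, with 3 of 8 higher at FDR under 0.05. Paneth cell markers summed to 952 and 729 CPM in young and to 2081 and 813 CPM in old ISCs, with 2 of 8 higher, and the high value belonged to ISC_22mth replicate 1. Goblet cell markers summed to between 1945 and 2655 CPM, with none of 8 called. Enteroendocrine markers summed to between 28.5 and 133 CPM, with none of 7 tested called. Tuft cell markers summed to between 3.51 and 9.75 CPM, with Il25 at 0 in all libraries and 1 of 3 tested higher (Dclk1). Dclk1 had 4 and 4 counts in young and 42 and 19 in old ISCs. It thus passed the filter through the old pools alone, which favoured a higher old value. Of the 3 tested, 2 had a log2 fold change above 0 and 1 below 0. Leukocyte markers summed to 14.9 and 16.2 CPM in young and to 23.1 and 22.7 CPM in old ISCs, with 1 of 2 tested higher, Itgam, from 11.6 ± 1.96 to 19.9 ± 1.00 CPM. The other, Cd68, stood at 4.34 and 2.71 CPM in young and 2.27 and 1.80 CPM in old ISCs (log2 fold change -0.79, FDR = 0.32). Cd3g, Cd79a, Itgax and Adgre1 were at 0 in all libraries. Stromal and endothelial markers summed to between 1.72 and 3.57 CPM, with Col1a2, Col3a1, Pdgfra, Cdh5 and Kdr at 0 in all libraries and none of 2 tested called. The part of these cell types in the values below was not tested, and in bulk RNA fewer cells of a type cannot be told apart from less RNA per cell.

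**Figure D1:**
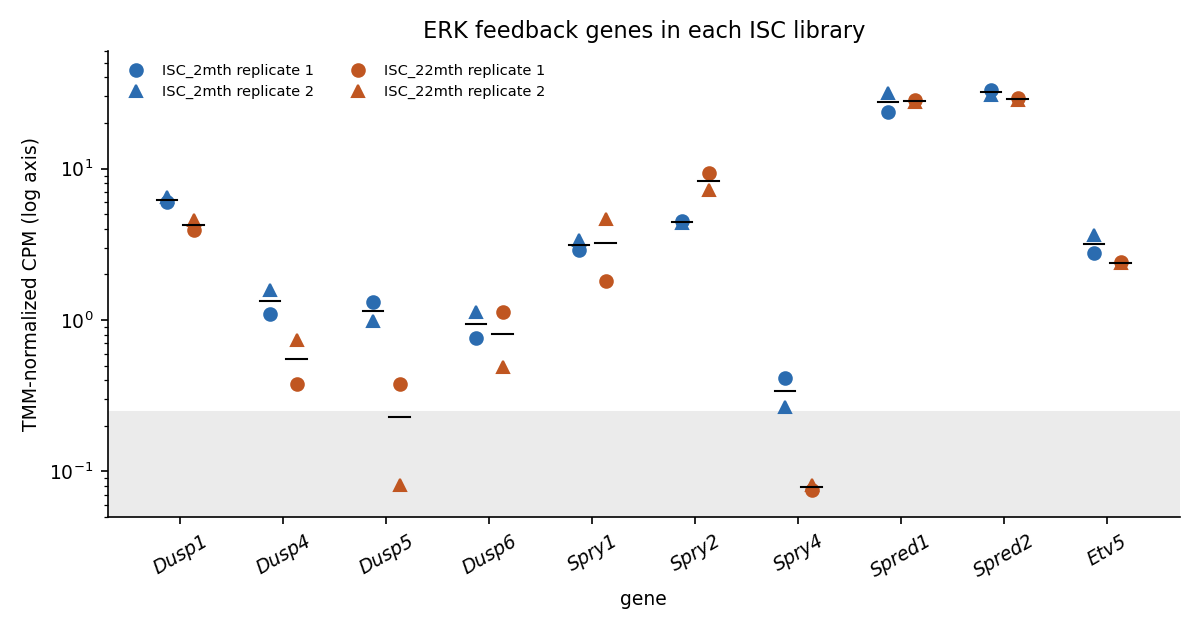
Normalized CPM on a log axis of the 10 feedback genes in each library, with circles for replicate 1, triangles for replicate 2, blue for ISC_2mth, orange for ISC_22mth and a bar at each mean (n = 2 pools); grey marks levels under 0.245 CPM, the highest floor of a library. Spred1 and Spred2 lie highest, Spry2 is higher and Dusp5 lower in both old pools than in both young pools, and Spry4 lies at the floor or close to it.

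Per kilobase of annotated exon, the SPRED genes had the highest level on average and Spry4 the lowest. In ISC_22mth replicate 1, Spry2 at 4.45 CPM per kb lay above Spred1 at 4.18 CPM per kb. Averaged over the 4 libraries, Spred2 stood at 6.56 CPM per kb (from 6.11 to 7.14) and its relative Spred1 at 4.10 CPM per kb (from 3.50 to 4.64). They were followed by Spry2 at 3.03, Dusp1 at 1.58, Spry1 at 1.10 and Etv5 at 0.681 CPM per kb. Dusp4 stood at 0.347, Dusp6 at 0.280, Dusp5 at 0.279 and Spry4 at 0.0439 CPM per kb. Dusp5 was above Dusp6 in both young pools and below it in both old pools. The ranges over all 4 libraries of neighbours in this order overlapped, except for Spred2 over Spred1 and Spry2 over Dusp1. Within each library, the order also held in 4 of 4 libraries for Spry1 over Etv5, Etv5 over Dusp4 and Dusp5 over Spry4. Per kb, the SPRED pair made up between 57.7% and 60.7% of the summed level of the 10 members in a library. Of the counts, to which long genes add more, it held 824 of the 1110 counts on all 10 members in the first young pool, 941 of 1271 in the second, 762 of 1019 in the first old pool and 684 of 931 in the second.

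Of the phosphatases, Dusp1 was the one with the most reads, and the other three had at most 24 counts in any library. Dusp1 encodes a nuclear phosphatase that acts on the stress kinases p38 and JNK as well as on ERK and is itself a classical immediate early gene. It lies on chromosome 17 from 26505590 to 26562128 (GRCm38, GENCODE vM21, minus strand), and its exons share 11 bp with Ergic1 on the opposite strand. The young pools held 87 and 98 Dusp1 counts, and the old pools held 52 and 56. Both old pools lay below both young pools. The level was 6.24 ± 0.347 CPM in young and 4.25 ± 0.460 CPM in old ISCs, which gave a log2 fold change of -0.55 (standard error 0.27, 95% interval -1.12 to 0.013, FDR = 0.31).

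Dusp5 encodes a nuclear phosphatase that acts on ERK alone, and lies on chromosome 19 from 53529109 to 53542431, on the plus strand. Its counts were 19 and 15 in young and 5 and 1 in old ISCs, so that the old value rests on 6 reads in all. Both old pools lay below both young pools, with the second old pool under the floor. The log2 fold change was -2.26 (standard error 0.94, 95% interval -4.23 to -0.28, unadjusted p = 0.027, FDR = 0.23). From the summed counts, the ratio of old to young was 0.205 with an exact interval from 0.0705 to 0.495, which covers counting error only, as do the other such intervals given here, since reads copied by amplification do not each stand for 1 molecule. Exons of Dusp5 overlap an antisense gene, AC137853.2, over 547 bp, and that gene is not among those counted. Whether the counting kept the strands apart is not given in the sources used here, and without it the reads of this stretch could be of either gene.

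Dusp4, a nuclear phosphatase of ERK and related kinases, lies on chromosome 8 from 34807297 to 34819894. Counts of 16 and 24 in young and 5 and 9 in old ISCs gave 1.34 ± 0.343 and 0.557 ± 0.253 CPM. The ages did not overlap. The log2 fold change was -1.27 (standard error 0.73, 95% interval -2.81 to 0.27, FDR = 0.40). Dusp6, the cytoplasmic phosphatase that binds ERK itself and is among the most used readouts of ERK activity, lies on chromosome 10 from 99263231 to 99267489. It had 11 and 17 counts in young and 15 and 6 in old ISCs, and the ages overlapped. At this depth its fold change of 0.868 (old over young) had a 95% interval from 0.291 to 2.59, so that even a large difference in Dusp6, in either direction, was not detectable.

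All 4 phosphatases together held 9.16 and 10.2 CPM in the young pools and 5.82 and 5.89 CPM in the old pools. This sum was mostly Dusp1, and no test was run on it. Dusp4, Dusp5 and Dusp6 passed the filter on low counts (over 5 reads and over 1 CPM before TMM scaling) through the young pools alone, so that lower values in old ISCs were favoured for them by the filter itself.

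Promoter sequences are shown for the phosphatases Dusp1 and Dusp5, whose windows held a motif searched for, and for Spry2, the member with the lowest p, as the stretch from -250 to -51 of the RefSeq start (GRCm38.p6), 5′ to 3′ on the strand of the gene. Capitals mark matches on either strand to the cAMP response element (TGACGTCA) or to the CArG box, the site of serum response factor. The windows are chr17:26508523-26508722 (minus strand) for Dusp1, chr19:53528895-53529094 (plus strand) for Dusp5 and chr14:105896870-105897069 (minus strand) for Spry2.
Dusp1: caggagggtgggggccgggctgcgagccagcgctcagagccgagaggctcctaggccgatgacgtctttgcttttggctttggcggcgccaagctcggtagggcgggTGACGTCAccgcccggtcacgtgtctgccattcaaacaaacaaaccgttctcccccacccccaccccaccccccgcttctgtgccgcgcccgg
Dusp5: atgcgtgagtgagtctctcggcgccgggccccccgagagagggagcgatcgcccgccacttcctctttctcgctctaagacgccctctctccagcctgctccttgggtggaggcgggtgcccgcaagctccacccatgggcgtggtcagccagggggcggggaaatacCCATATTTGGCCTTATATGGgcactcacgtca
Spry2: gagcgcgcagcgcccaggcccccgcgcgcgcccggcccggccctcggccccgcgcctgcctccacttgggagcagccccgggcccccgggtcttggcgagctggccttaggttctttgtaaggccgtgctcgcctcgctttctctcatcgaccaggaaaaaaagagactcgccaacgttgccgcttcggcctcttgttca
Dusp1 held 1 cAMP response element starting at -143, which occurs in 0.828% of the 32851 RefSeq promoter windows of this length. Dusp5 held 2 adjoining CArG boxes starting at -82 and -72, and 1.16% of windows hold at least 1. Spry2 held neither, nor an AP-1 site (TGANTCA, 5.57% of windows) or the ETS core CCGGAA (8.03%). None of the 4 motifs, which do not overlap in the windows shown, was found in the windows of Dusp6, Spry1, Spred1, Spred2 or Etv5 (2 starts). Windows were matched for 8 of the 10 members, all but Dusp4 and Spry4. Such matches describe the letters of these windows and show no binding.

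**Figure D2:**
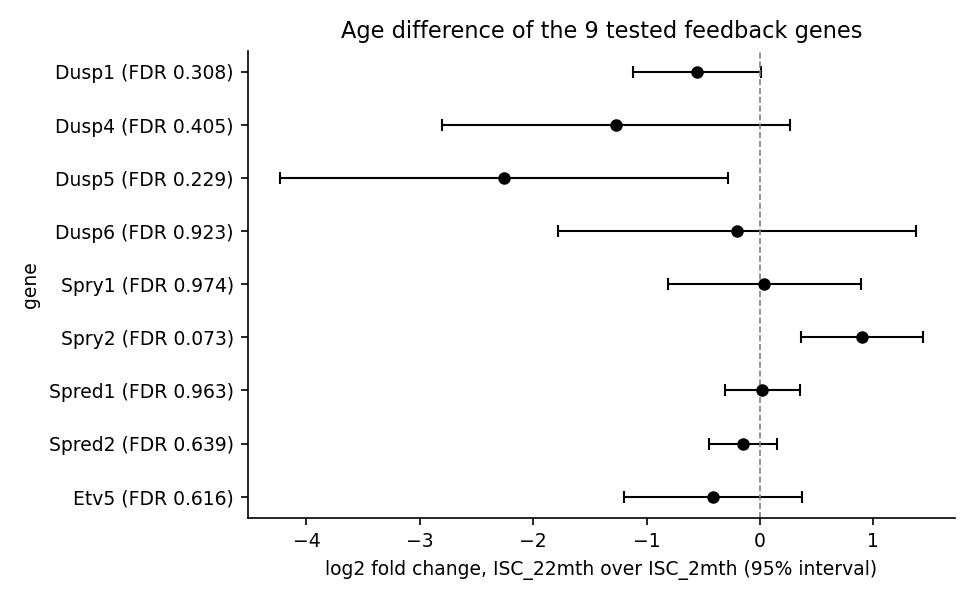
Log2 fold change of old over young ISCs for the 9 feedback genes tested, as points with 95% intervals from edgeR's quasi-likelihood test (n = 2 pools per age), with FDR beside each name. Only the intervals of Dusp5 and Spry2 leave out 0, on opposite sides, and no FDR is under 0.05.

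The Sprouty genes did not share 1 direction. SPRY2 is an inhibitor of receptor tyrosine kinase signalling that is induced by growth factors, and its gene lies on chromosome 14 from 105891947 to 105896819, on the minus strand, with no other annotated gene over its exons. The young pools held 65 and 66 Spry2 counts, and the old pools held 123 and 88, or 4.48 and 4.37 against 9.29 and 7.20 CPM. Neither old pool reached down to the young pools, and the old pools differed from each other far more than the young ones did. The log2 fold change was 0.90 (standard error 0.26, 95% interval 0.36 to 1.43, unadjusted p = 0.0023, FDR = 0.073), a fold of 1.87. Without ISC_22mth replicate 2, the lower of the old pools, it was 1.07 with FDR = 0.014 (5.02% of all genes called), and without ISC_22mth replicate 1 it was 0.70 with FDR = 0.22. With the replicate number as a block Spry2 had FDR = 0.038, when 4.56% of all genes were called. It stayed above 0.05 by DESeq2 (0.26), with offsets for GC content and length (log2 fold change 0.76, FDR = 0.17), with total counts (0.41, FDR = 0.24), and without ISC_2mth replicate 1 (FDR = 0.29) or 2 (FDR = 0.21). ISC_22mth replicate 1 was also the library with the highest sum of Paneth cell markers, as given above, and the part of those cells in Spry2 was not tested.

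Spry1, a close relative of Spry2, lies on chromosome 3 from 37639947 to 37644598 and overlaps Gm42922, on the opposite strand, over 710 bp, a gene with 0 counts in all libraries. The doubt about strands given for Dusp5 holds for this stretch as well. Spry1 had 42 and 51 counts in young and 24 and 57 in old ISCs. The old pools lay on either side of the young pools, at 1.81 and 4.66 against 2.89 and 3.37 CPM. The log2 fold change was 0.037 (95% interval -0.81 to 0.89, FDR = 0.97), and its sign changed in several of the alternatives. Counts of Spry2 per count of Spry1 within a library were 1.55 and 1.29 for the young pools, 5.13 in ISC_22mth replicate 1 and 1.54 in ISC_22mth replicate 2. A ratio outside the range of the other libraries was thus seen in 1 old pool and not in both.

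Spry4, on chromosome 18 from 38586247 to 38601415, was close to silent, with 6 and 4 counts in young and 1 and 1 in old ISCs. It was the only member that did not pass the filter on low counts. Both old pools lay below both young pools, but the summed count of 2 in old ISCs gave a ratio of old to young of 0.233 with an exact interval from 0.0248 to 1.09. Tested without the filter, its FDR was 0.75. Summed over the 3 Sprouty genes, the young pools had 7.78 and 8.01 CPM, and the old pools 11.2 and 11.9 CPM. In this sum the old pools were close to each other although Spry1 and Spry2 were not, since the pool that was high in Spry2 was low in Spry1. No test was run on it.

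The SPRED genes, which carry most of the members' reads, had the narrowest intervals. SPRED proteins bring the RAS inactivator neurofibromin to the membrane. Spred1, on chromosome 2 from 117121374 to 117182279, had 345 and 476 counts in young and 375 and 339 in old ISCs. After normalization both old pools, at 28.3 and 27.7 CPM, lay between the young pools, at 23.8 and 31.5 CPM. Its fold change was 1.01 with a 95% interval from 0.805 to 1.28 (FDR = 0.96). Spred2, on chromosome 11 from 19924375 to 20024026, had 479 and 465 counts in young and 387 and 345 in old ISCs. After normalization both old pools, at 29.2 and 28.2 CPM, lay below both young pools, at 33.0 and 30.8 CPM. The fold change was 0.901 with a 95% interval from 0.733 to 1.11 (FDR = 0.64). For these 2 genes the intervals are narrow enough to leave out a change of 1.5 times in either direction.

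Etv5, an ETS factor of the PEA3 group, lies on chromosome 16 from 22381309 to 22439719. Its counts were 40 and 55 in young and 32 and 29 in old ISCs. Both old pools, at 2.42 and 2.37 CPM, lay below both young pools, at 2.76 and 3.64 CPM, and the gap to the nearer young pool was smaller than the gap between the young pools. The log2 fold change was -0.42 (standard error 0.37, 95% interval -1.20 to 0.37, FDR = 0.62). Its relatives Etv1 and Etv4 did not pass the filter on low counts.

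In all, the mean level was lower in old ISCs for 7 of the 10 members and higher for 3 (Spry1, Spry2 and Spred1), with Spry1 and Spred1 close to no difference and of the opposite sign when libraries were scaled by total counts. The ages did not overlap in 6 of the 9 members tested, against 47.6% of all genes tested. Old ISCs were lower in 5 of these (Dusp1, Dusp4, Dusp5, Spred2 and Etv5; 23.6% of all genes) and higher in 1 (Spry2; 24% of all genes). Dusp4 and Dusp5 are among these 5 and, like Dusp6, passed the filter through the young pools alone, so that the count is no sign of a shared direction. Of the 6 members that passed at both ages, 3 had a log2 fold change below 0, with a median of -0.065, beside 46.8% below 0 and a median of 0.027 over all 12076 genes that passed at both ages. Without a filter on low counts, the median log2 fold change of all 10 members was -0.32, beside -0.023 for the 24764 genes then tested. With 10 genes, of which 4 had 1 or more old pools under 10 counts, this median rests on values of wide error. Scaling by total counts shifted the median of all genes by -0.49, along with the larger mitochondrial share of the old pools, and 4 members then had FDR under 0.05, all lower in old ISCs (Dusp1, Dusp5, Spred1 and Spred2), when 33.8% of all genes did. Relative to that shift their log2 fold changes were -0.55, -2.26, 0.027 and -0.15, close to the values under TMM.

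**Figure D3:**
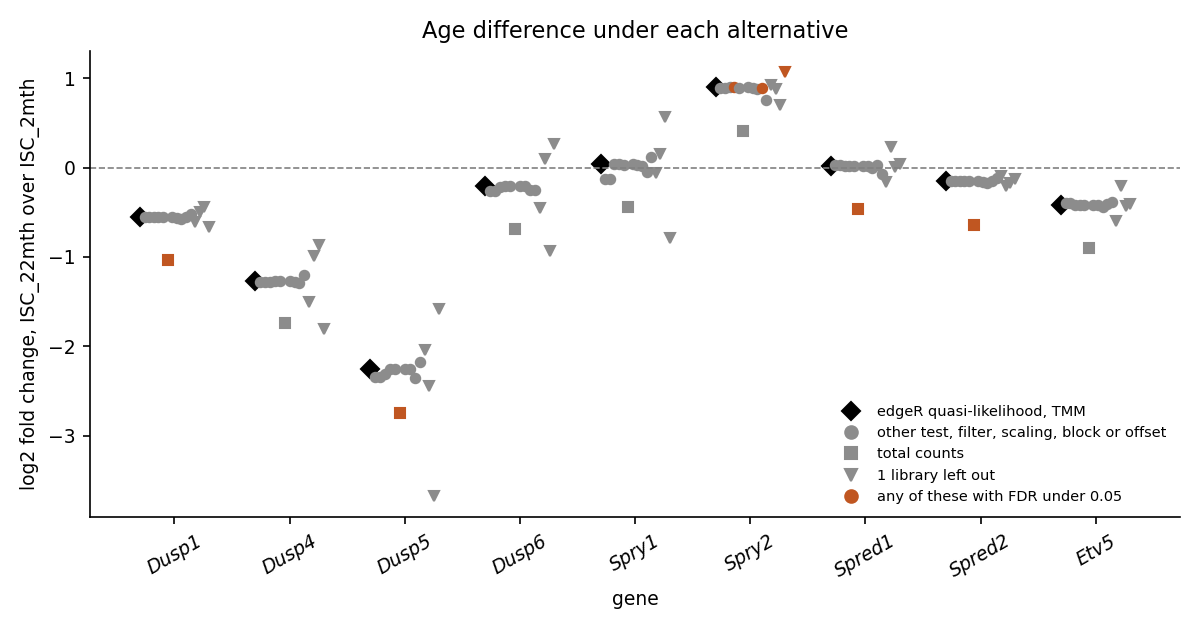
Log2 fold change of old over young ISCs for the 9 feedback genes tested under edgeR's quasi-likelihood test with TMM (black diamonds), another test, filter, scaling, block or offset (circles), total counts (squares) or with 1 library left out (triangles), with orange for FDR under 0.05. Spry2 stays above 0 and Dusp1, Dusp4, Dusp5, Spred2 and Etv5 below 0 under all of those that gave them a value (Dusp4, Dusp5 and Dusp6 have none with at least 10 counts in every library), while Dusp6, Spry1 and Spred1 lie on both sides of 0.

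The rest of the pathway was compared in the same fit, to show whether the members stood beside other differences. The remaining inhibitors, a list of 18 genes with further DUSPs, Errfi1, Lrig1, Cbl, Rasa1 and Nf1, had 12 genes tested and none with FDR under 0.05 by the quasi-likelihood test, limma voom with or without weights, DESeq2 or the likelihood ratio test. By the quasi-likelihood test 1 of them had an unadjusted p under 0.05, Errfi1, an EGF receptor inhibitor (log2 fold change -0.41, standard error 0.19, FDR = 0.28). Lrig1, a membrane protein that restrains EGF receptors in crypt stem cells, came next (-0.27, standard error 0.13, FDR = 0.32). The median of the list was -0.048 (-0.045 without Spred3, which passed the filter through the young pools alone), beside -0.0049 for all genes tested.

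Among the adaptors and kinases of the chain, none of the 22 genes, all tested, had FDR under 0.05 by the quasi-likelihood test, nor by limma voom, with or without weights, DESeq2 or the likelihood ratio test. An unadjusted p under 0.05 was seen in 2 with higher and 2 with lower values in old ISCs. The lowest p belonged to Ptpn11, a phosphatase that relays receptor signals to RAS (log2 fold change -0.37, standard error 0.16, FDR = 0.25). The median of the list was 0.015.

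Of the receptors and ligands, 1 of 13 tested passed, Igf1r, the receptor of insulin-like growth factors, beside 2.26% of all genes tested. The young pools held 1183 and 1178 counts of Igf1r, and the old pools 698 and 671. Its level fell from 79.7 ± 2.52 to 53.8 ± 1.51 CPM (n = 2 pools each), by 0.57 on the log2 scale (standard error 0.12, FDR = 0.020), and both old pools lay below both young pools. Its FDR was 0.060 once GC content and length entered as offsets, and without ISC_2mth replicate 1 it was 0.15. The median of the list was -0.11, and -0.072 without Egf, which passed the filter through the young pools alone.

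Among 18 further output genes of ERK signalling, 13 were tested and 1 passed, Egr1, an immediate early transcription factor with 669 and 518 counts in young and 254 and 327 in old ISCs (log2 fold change -0.81, standard error 0.18, FDR = 0.020). An unadjusted p under 0.05 was seen in 2 genes with higher values in old ISCs, Mcl1 (0.34, FDR = 0.18) and Myc (0.24, FDR = 0.29), and in Egr1. The median of this list was -0.23, but 3 of its genes (Elk3, Ets1 and Egr3) passed the filter through the young pools alone. Of the 10 that passed at both ages, 7 were below 0, with a median of -0.19. Over all genes that passed at both ages, 46.8% were below 0, with a median of 0.027. Immediate early genes, a list that shares Egr1 and whose genes respond to stress as well as to growth factors, had 16 of 19 genes tested and 2 that passed, Fosb (-1.55, standard error 0.32, FDR = 0.015) and Egr1, both lower in old ISCs. The median was -0.24, with Atf3 and Nr4a1 passing the filter through the young pools alone. Of the 14 that passed at both ages, 11 were below 0, with a median of -0.23, beside the same 46.8% and 0.027. Among all genes tested, 2.26% had FDR under 0.05, 0.628% with lower values in old ISCs. Dusp1 moves with this class in many tissues, and its log2 fold change of -0.55 stands beside these values. The study chose Egr1 and Fosb on these same libraries, so that their calls are not independent evidence of a direction. The FDR of Egr1 was 0.062 with the same offsets and 0.20 without ISC_2mth replicate 1. Fosb kept FDR = 0.036 with the offsets, and had 0.055 without ISC_2mth replicate 1 and 0.059 without ISC_2mth replicate 2.

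**Figure D4:**
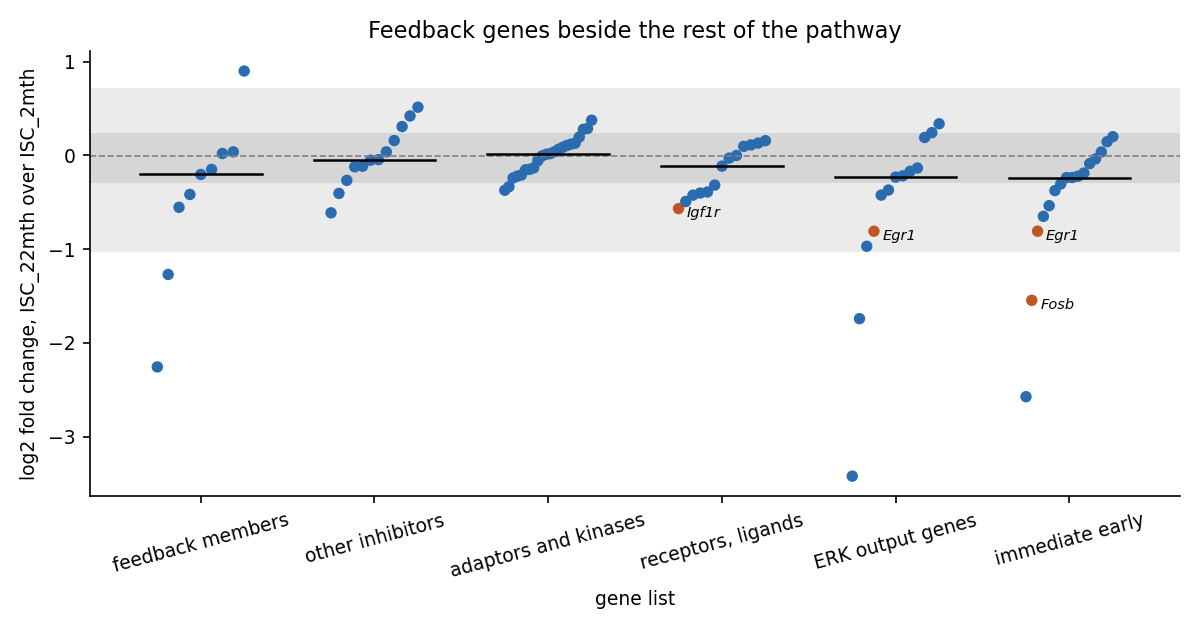
Log2 fold change of old over young ISCs for the tested genes of each list, as points sorted by value, with a bar at each median; orange marks FDR under 0.05, and grey bands hold the middle 50% and 90% of all 13692 genes tested. Of the feedback members, Dusp5 and Dusp4 lie below and Spry2 above the wider band (-1.02 to 0.71), and named genes outside the members are Igf1r, Egr1 and Fosb.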

How the data were processed

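Sorted ISCs of 2 and 22 months, 2 pools of 5 mice each, were amplified by SPIA (NuGen), which copies RNA along the whole transcript without molecular identifiers and sequenced. Per the labels and the study's methods, the authors trimmed reads with Trimmomatic 0.30, aligned them with STAR 2.4.2a to GRCm38, counted reads in exons of GENCODE vM15 with featureCounts, and deposited raw counts per gene, without normalization. Strand setting and treatment of multiply aligned reads are not given in the sources used here.

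Samples were grouped by age from the labels. A gene was kept if any library held over 5 reads and over 1 CPM (unscaled) of it (13692 of 52459). Ages were compared with edgeR 4.0.16 (R 4.3.3), TMM scaling and a quasi-likelihood fit on age alone (glmQLFit, glmQLFTest). P-values were adjusted by Benjamini-Hochberg over all genes kept (FDR, threshold 0.05). P-values set the age difference against the spread between pools. That spread is shared by both ages and drawn in part from the other genes. Replicate pools differed by more than counting noise (chi-square per gene 14.6 in young and 8.10 in old ISCs).

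Alternatives were limma 3.58.1 (voom, with sample quality weights as in the study's methods, and without), edgeR's likelihood ratio test (also used in the study to compare these ages), DESeq2 1.42.0 (no independent filtering), scaling by the size factors of DESeq2 or by total counts, TMM without mitochondrial and ribosomal RNA-like loci, a block for the replicate number, no filter, a minimum of 10 counts in each library, lowess offsets (span 0.3, 3 iterations) on the GC content of the longest transcript and then on exonic length in each library (96.7% of genes tested had both values), and leaving out each library, in which the lone library of an age is assumed to vary like the other age. Scripts were tested on simulated counts. Positions and exonic lengths came from GENCODE vM21, matched by symbol, and promoters from RefSeq (GRCm38.p6).

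Members and lists were chosen with earlier results of these data known. Named were all members, the genes of each pathway list with FDR under 0.05 (at most 3 in each direction), the 2 of lowest p where none passed, and marker lists by their sums and members at 0. Some genes that the rule names are not reported here. Axin2, Dclk1, Itgam, Cd68, Mcl1, Myc, Elk3, Ets1, Egr3, Atf3, Nr4a1, Spred3, Egf, Etv1 and Etv4 were named outside this rule, after their values were seen.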

Additional observations from a re-analysis of the deposited data

How the results depend on the processing

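Of 132 log2 fold changes of the 9 tested members under 15 alternatives, 114 kept their sign and their side of FDR 0.05, 6 kept the sign and passed FDR 0.05, and 12 changed sign, those of Spry1, Spred1 and Dusp6. These include total counts, which shifted the median of all genes by -0.49. Under that scaling Dusp1, Dusp5 and Spred2 passed with their sign kept, and Spry1 and Spred1 changed sign. With at least 10 counts in every library, Dusp4, Dusp5 and Dusp6 could not be tested. Feedback genes with FDR under 0.05 numbered 0 in 11 of the 15 alternatives, 1 by the likelihood ratio test (Spry2) and 4 with total counts (Dusp1, Dusp5, Spred1 and Spred2), and between 0 and 1 with a library left out (Spry2, without ISC_22mth replicate 2).

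The replicate numbers mark different animals, and deviations of same-numbered pools did not correlate across genes (r = -0.00015). Whether same-numbered pools were processed together is not given in the sources used here. The correlation cannot decide it, since counting noise in genes with few reads pulls it towards 0. With the replicate number as a block, 624 genes had FDR under 0.05, against 309 without it, and 1 feedback gene, Spry2 (FDR = 0.038).

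All genes called numbered 197 by DESeq2 (147 higher, 50 lower), 611 by the likelihood ratio test, 4632 with total counts (96 higher, 4536 lower, against 223 and 86 with TMM), 554 with no filter, 179 with the GC and length offsets, and between 147 and 687 with a library left out, lowest without ISC_2mth replicate 1 and highest without ISC_22mth replicate 2. Pathway list genes called numbered 3 under TMM, 39 with total counts, 1 with the offsets (Fosb) and between 0 and 4 with a library left out, the 0 without ISC_2mth replicate 1. The causes of these changes were not tested.

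Spry1 was -0.13 by limma voom with and without weights, -0.44 with total counts, -0.050 with the block, -0.066 without ISC_2mth replicate 1 and from -0.79 (without ISC_22mth replicate 2) to 0.57 with a library left out. Spred1 was -0.46 with total counts (FDR = 0.036), -0.0019 with at least 10 counts in every library, -0.067 with the offsets and from -0.17 (without ISC_2mth replicate 1) to 0.23 with a library left out. Dusp6 was from -0.93 to 0.26 with a library left out, and above 0 (0.10 and 0.26) without ISC_2mth replicate 2 or ISC_22mth replicate 2. Dusp5 ranged from -3.67 to -1.58 and Dusp4 from -1.81 to -0.86 with a library left out. The order of levels per kb was the same for all 10 members with the longest transcript as length. Depth limits Dusp4, Dusp5, Dusp6 and Spry4 most.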
